A study of Mus musculus with 35 samples.

Results

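The transcripts described here are 10 feedback genes of the Ras-MAPK pathway, taken by name from 55413 Ensembl genes counted in the livers of 21 mice. They are the phosphatases Dusp4, Dusp5 and Dusp6, the Sprouty genes Spry1, Spry2 and Spry4, the Sprouty-related genes Spred1 and Spred2, and the transcription factor genes Etv4 and Etv5. The mice were labelled C57Bl6 and fell into 4 groups. In the Smyd3-ASO group, 6 mice were given the carcinogen diethylnitrosamine (DEN), 25 mg/kg at day 14. From day 133 they were injected 2 times a week with 50 mg/kg of an antisense oligonucleotide (ASO, which binds an RNA by base pairing) against Smyd3, and their livers were taken at day 260. The control-ASO group comprised 6 mice given the same DEN dose and the same schedule of a control oligonucleotide. The DEN P133 group held 4 mice that had DEN alone and were harvested at day 133. The remaining 5 mice had neither DEN nor oligonucleotide and were harvested at day 260. The labels call all DEN samples DEN-induced tumours and the untreated ones normal liver, while the RNA was prepared from pieces of liver, so the share of tumour in a piece is unknown. Untreated mice therefore differ from the mice of either ASO group in DEN, tumour and oligonucleotide together. They differ from P133 mice in DEN, the tumour label and age together. Within each pair of groups these cannot be told apart.

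In this pathway, growth factor receptors load Ras with GTP, and Ras starts a chain of kinases that ends in ERK. Active ERK enters the nucleus and raises a set of short-lived transcripts, several of which code for proteins that switch the pathway down again. Dusp proteins take phosphate off ERK, Sprouty and Spred proteins act upstream at Ras and Raf, and Etv4 and Etv5 are ETS factors induced by FGF and EGF signals. Mouse liver tumours induced by DEN often carry activating mutations of Hras or Braf, as other studies have described; the genotype of these tumours was not analysed here. Smyd3 is a lysine methyltransferase that has been reported to methylate the kinase Map3k2 in Ras-driven mouse tumours.

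Promoter windows of 300 bases (250 before and 50 after the RefSeq start, GRCm38.p6, the same assembly as mm10) were found for 7 members, 1 window each for Dusp5, Dusp6, Spry1, Spry2, Spred1 and Spred2 and 2 for Etv5. The windows of Dusp5 and Spry2 are shown because these genes were lower under Smyd3-ASO, and that of Dusp6 because it was not. They lie at chr19:53528895-53529194 (plus strand), chr14:105896770-105897069 (minus strand) and chr10:99262981-99263280 (plus strand). Capitals mark CArG boxes, the letters to which serum response factor binds.
Dusp5: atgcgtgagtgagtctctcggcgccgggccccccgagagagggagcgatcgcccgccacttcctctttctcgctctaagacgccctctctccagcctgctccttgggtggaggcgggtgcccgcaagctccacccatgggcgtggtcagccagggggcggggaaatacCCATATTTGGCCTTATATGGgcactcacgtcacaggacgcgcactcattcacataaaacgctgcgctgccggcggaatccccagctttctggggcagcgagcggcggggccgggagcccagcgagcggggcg
Spry2: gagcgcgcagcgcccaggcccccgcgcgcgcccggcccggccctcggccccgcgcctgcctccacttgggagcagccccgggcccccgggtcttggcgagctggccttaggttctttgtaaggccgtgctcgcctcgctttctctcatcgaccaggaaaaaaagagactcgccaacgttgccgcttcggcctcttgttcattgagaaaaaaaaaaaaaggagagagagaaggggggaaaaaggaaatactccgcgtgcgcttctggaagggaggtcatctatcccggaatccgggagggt
Dusp6: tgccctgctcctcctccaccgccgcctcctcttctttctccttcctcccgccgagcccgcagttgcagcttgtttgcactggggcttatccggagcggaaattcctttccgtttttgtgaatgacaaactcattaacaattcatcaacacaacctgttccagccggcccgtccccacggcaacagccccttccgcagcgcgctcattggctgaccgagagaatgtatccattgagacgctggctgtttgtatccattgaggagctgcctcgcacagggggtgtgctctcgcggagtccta
The Dusp5 window holds 2 adjacent CArG boxes, from -82 to -73 and from -72 to -63 relative to the start, each read on both strands. Of 8 windows of members, 1 holds such a box, and so do 1.63% of 32851 windows of all genes. The ETS letters CCGGAAG (8.86% of all windows), the AP-1 letters TGANTCA (7.81%) and the CRE letters TGACGTCA (1.79%) occur in 0 of the 8 windows on either strand, so no match overlaps one of another motif. GC content is 66.7% for Dusp5, 62.7% for Spry2 and 57.3% for Dusp6, against a median of 52.7% over all windows. These matches describe the letters in the windows and show no binding.

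Each read comes from the 3' end of a polyadenylated transcript, and the libraries of each ASO mouse had been added together by the authors, so a mouse is 1 sample. Total counts ran from 6358080 to 20258619 in Smyd3-ASO mice, from 6789715 to 13805881 in control-ASO mice, from 4556484 to 6447397 in P133 mice and from 10186780 to 13116012 in untreated mice. Levels are given in CPM (counts scaled to a common library size, over all mice) with their standard deviation (SD). Changes are on the log2 scale, fitted by edgeR's quasi-likelihood test, with a standard error (SE); the threshold is an adjusted p of 0.05 over 15297 genes tested. The targeted gene Smyd3 stood at 0.325 ± 0.289 CPM under Smyd3-ASO, against 3.87 ± 0.598 CPM under control ASO (SD, n = 6 each). Of the 10 members, 8 passed the filter on low counts. Dusp4 and Etv4 did not and are given by their counts. Dusp5 reached the minimum count in 5 Smyd3-ASO and 6 control-ASO mice but in 0 P133 and 0 untreated mice, so it passed through the ASO groups. Spry4 reached it in 4 Smyd3-ASO, 6 control-ASO and 2 untreated mice but in 0 P133 mice. Spry2 reached it in 3 Smyd3-ASO, 6 control-ASO, 3 P133 and 1 untreated mice.

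Smyd3-ASO against control ASO compares DEN livers of the same age in which Smyd3 was or was not targeted. Here 2 feedback genes fell, Dusp5 by 6.71-fold and Spry2 by 3.55-fold, and 0 rose. Among all genes tested, 12.9% fell and 13.3% rose (26.1% in either direction). The median change of the 8 members was log2 -0.27, next to 0.01 over all genes tested. In the fit without a filter, which holds all 10 members, 2 fell and 0 rose. At the same time bile duct markers, with a summed level of 49.0 to 80.7 CPM in Smyd3-ASO mice and 114 to 236 CPM in control-ASO mice, did not overlap; of the 7 tested, 2 fell and 1 rose. The hepatocyte marker sum ran from 28659.6 to 46133 CPM under Smyd3-ASO and from 68277.3 to 111352 CPM under control ASO, with 6 of 10 markers lower and 1 higher. Macrophage markers summed to 341 to 652 CPM in Smyd3-ASO mice and 190 to 428 CPM in control-ASO mice, with 3 of 10 higher and 0 lower. None of the markers in these 3 lists was at 0 in every mouse, and the part of these cell types in the changes was not tested. In bulk liver, fewer cells of a type and less RNA per cell cannot be told apart.

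**Figure D1:**
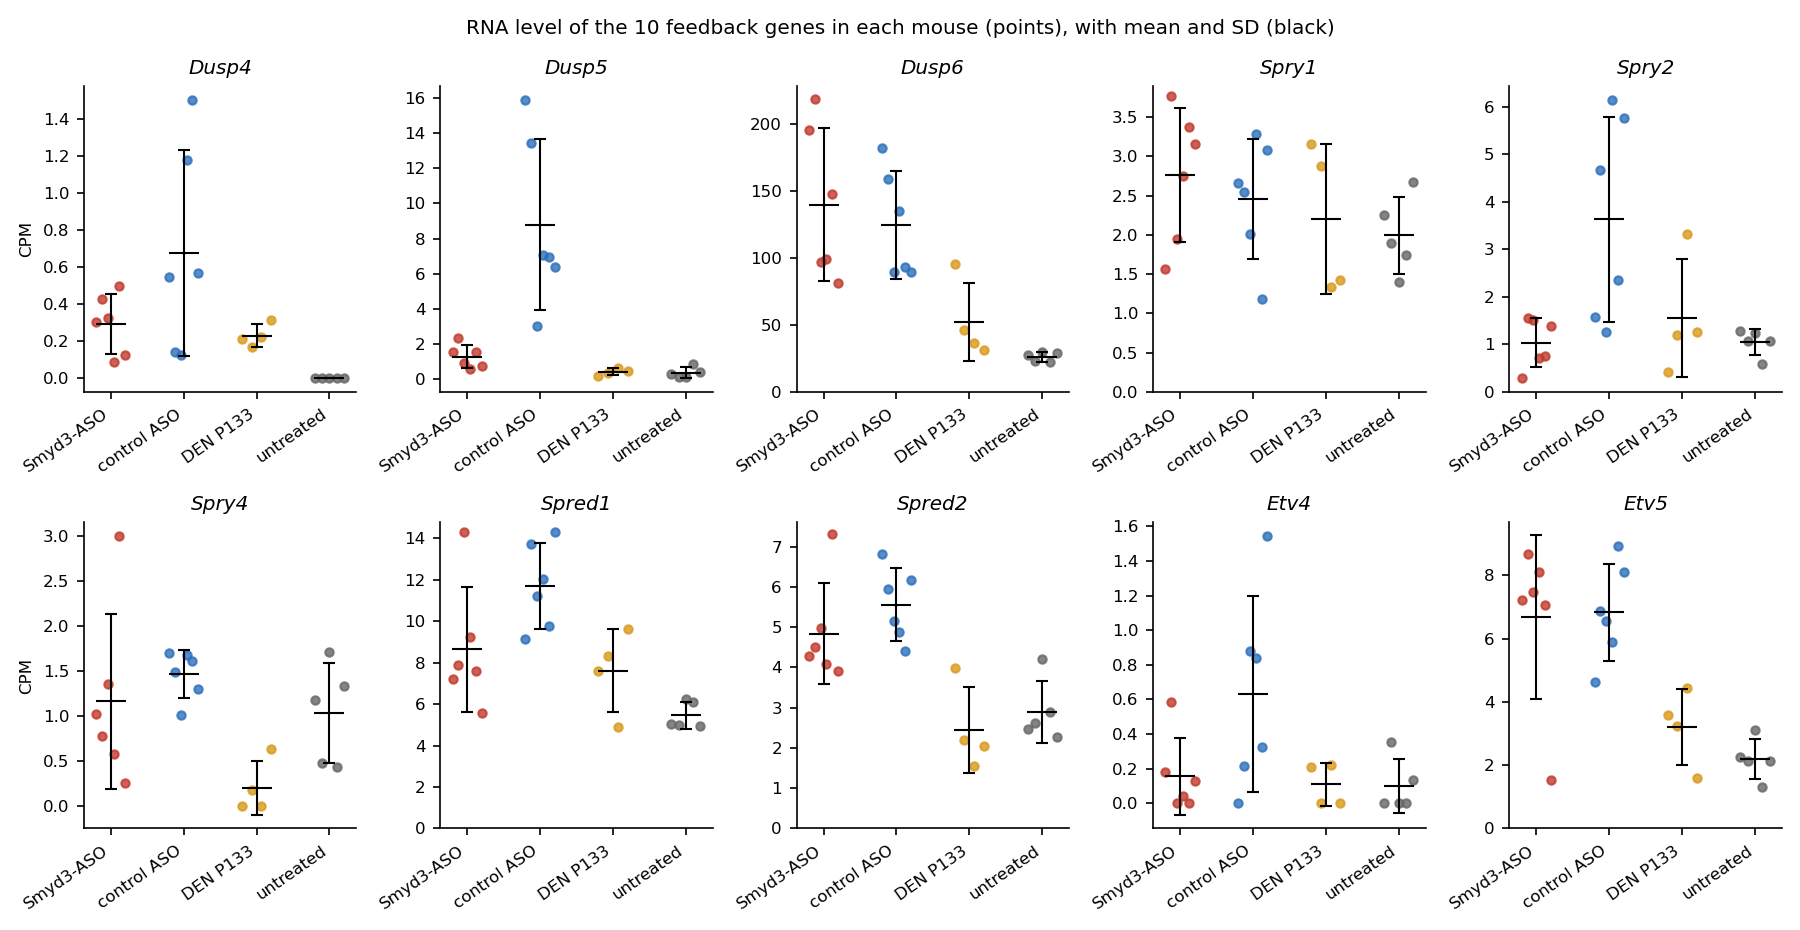
RNA level of each feedback gene in CPM (y axis, one scale per panel) by group (x axis). Points are mice, the black line is the mean and the bars are 1 SD. Dusp5 separates Smyd3-ASO mice (0.576 to 2.37 CPM) from control-ASO mice (3.02 to 15.9 CPM), while Dusp6 overlaps between them and is lowest in untreated mice.

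Dusp5, a nuclear phosphatase that acts on ERK, moved most. The gene (ENSMUSG00000034765, protein-coding) lies on mm10 chromosome 19, plus strand, 53529109 to 53542431. The Smyd3-ASO mice ran from 0.576 CPM through a median of 1.24 to 2.37 CPM, and the control-ASO mice from 3.02 CPM through a median of 7.02 to 15.9 CPM. Dusp5 stood at 0.210, 0.339, 0.665 and 0.474 CPM in P133 mice and at 0.322, 0.119, 0.156, 0.871 and 0.401 CPM in untreated mice. Every Smyd3-ASO mouse was below every control-ASO mouse, and both ASO groups had their highest mice above all P133 and untreated mice. Dusp5 was the only member whose groups did not overlap in this comparison, as was so for 5.83% of all genes on the lower side (5.27% on the higher side, where no member stood). The change was log2 -2.75 (SE 0.42, adjusted p = 0.000527). Raw counts were 6 to 61 per Smyd3-ASO mouse and 24 to 233 per control-ASO mouse. An antisense gene, AC137853.2, overlaps Dusp5 and had 39 counts over all mice, against 846 for Dusp5. Of those 846, control-ASO mice held 675, P133 mice 9 and untreated mice 14, so the pooled totals say little about the last 2 groups. Untreated replicate 4, the highest of its group, had 6 antisense and 6 Dusp5 counts. The other untreated mice had 0 or 1 antisense and 1 to 3 Dusp5 counts. Whether the counting used strand is not given in the sources used here, so some reads of the pair may be assigned to the wrong partner.

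Control-ASO replicates 1 and 2 were the highest for Dusp5, at 15.9 and 13.4 CPM, and also for Dusp6. These mice differ from the rest of their group in a clock gene: Dbp, a target of the circadian clock, stood at 9.48 and 11.6 CPM in them and at 93.6 to 107 CPM in the other control-ASO mice. In all 6 Smyd3-ASO mice Dbp was low, at 5.31 to 33.4 CPM. The hour of harvest is not given in the sources used here, and the part of the clock was not tested. Without the mice whose Dbp lay far below their group's median, which here are Smyd3-ASO replicate 5 and control-ASO replicates 1 and 2, the change of Dusp5 was log2 -2.21 (adjusted p = 0.00447) and that of Spry2 was -1.85 (adjusted p = 0.0311). This fit does not match the groups for Dbp, since it leaves 11.9 to 33.4 CPM in Smyd3-ASO mice and 93.6 to 107 CPM in control-ASO mice. In the 2 control-ASO mice whose Dbp lay within the Smyd3-ASO range, Dusp5 was at 15.9 and 13.4 CPM and Spry2 at 1.57 and 4.67 CPM. The highest Smyd3-ASO values were 2.37 CPM of Dusp5 and 1.55 CPM of Spry2, the latter nearly equal to 1.57 CPM. On other clock genes the match of these 2 mice was mixed. Nr1d1 (9.34 and 7.99 CPM) and Arntl (9.48 and 9.83 CPM) lay within the Smyd3-ASO range. Tef (41.7 and 39.4 CPM) lay below that range, which was 54.1 to 148 CPM, and Ciart did so in replicate 2 (0.141 CPM).

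Dusp6, the cytoplasmic ERK phosphatase, had by far the most counts of the members. It lies on chromosome 10, plus strand, 99263231 to 99267489. In Smyd3-ASO mice it ran from 81.2 CPM through a median of 124 to 219 CPM, and in control-ASO mice from 89.3 CPM through a median of 114 to 182 CPM. The P133 mice had 95.6, 46.3, 36.4 and 31.3 CPM and the untreated mice 27.3, 22.9, 30.2, 22.1 and 29.3 CPM. The ASO groups covered nearly the same range, and all mice of both lay above all untreated mice. Between the ASO groups the change was log2 0.16 (SE 0.27, adjusted p = 0.689), with a 95% interval of -0.42 to 0.74. Without Smyd3-ASO replicate 2, the highest mouse, the value was -0.013.

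Dusp4, a nuclear phosphatase of ERK and the stress kinases (chromosome 8, plus strand, 34807297 to 34819894), was near the limit of detection. Its counts summed to 33 over 6 Smyd3-ASO mice, 46 over 6 control-ASO mice, 5 over 4 P133 mice and 0 over 5 untreated mice. A sum of 0 in untreated mice allows up to 3 counts, or 0.0779 CPM. The observed summed level was 3.95 times that limit in Smyd3-ASO mice, 8.41 times in control-ASO mice and 2.99 times in P133 mice. These folds take the observed sums as exact and leave out the spread between mice, so they are not lower bounds, least of all for the 5 P133 counts. The ratio of Smyd3-ASO to control ASO was 0.470, with an exact binomial 95% interval of 0.291 to 0.751 that covers counting error only. In the unfiltered fit over mice, which includes their spread, this difference did not pass (adjusted p = 0.220), whereas control ASO over untreated did (adjusted p = 0.000573).

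Spry2, an inhibitor of signals from growth factor receptors to Ras (ENSMUSG00000022114, protein-coding, chromosome 14, minus strand, 105891947 to 105896819), was the other gene to fall. Its Smyd3-ASO mice ran from 0.301 CPM through a median of 1.07 to 1.55 CPM, and its control-ASO mice from 1.26 CPM through a median of 3.52 to 6.14 CPM. In P133 mice Spry2 had 0.421, 1.19, 3.33 and 1.26 CPM, and in untreated mice 1.29, 1.07, 1.25, 0.581 and 1.07 CPM. Control-ASO replicate 3 lay within the Smyd3-ASO range and replicate 1 just above it, and all untreated mice lay within it. Raw counts were low, at 5 to 40 per Smyd3-ASO mouse and 10 to 73 per control-ASO mouse. They were 2 to 15 per P133 mouse and 4 to 12 per untreated mouse. Smyd3-ASO over control ASO was log2 -1.83 (SE 0.46, adjusted p = 0.0101), and Smyd3-ASO over untreated was -0.06 (SE 0.42, adjusted p = 0.919; 95% interval -0.96 to 0.85). With library totals in place of the scaling, Smyd3-ASO over untreated has the other sign, log2 0.84 (adjusted p = 0.107).

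Spry1, a relative of Spry2 on chromosome 3 (plus strand, 37639947 to 37644598), passed in none of the 6 comparisons. Its means were 2.76 ± 0.853 CPM under Smyd3-ASO, 2.46 ± 0.767 CPM under control ASO (SD, n = 6 each), 2.20 ± 0.956 CPM at P133 (n = 4) and 1.99 ± 0.489 CPM in untreated mice (n = 5). Neighbouring groups in that order differ by less than their SD. Between the ASO groups it differed by log2 0.14 (adjusted p = 0.725, 95% interval -0.45 to 0.73).

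Spry4, a Sprouty gene on chromosome 18 (minus strand, 38586247 to 38601415), stood out for its low level at P133. It had 0, 0.170, 0 and 0.632 CPM in P133 mice, from 0 to 4 counts per mouse, and 1.18, 0.474, 1.71, 0.435 and 1.34 CPM in untreated mice. The Smyd3-ASO mice ran from 0.253 CPM through a median of 0.900 to 3.00 CPM, and the control-ASO mice from 1.01 CPM through a median of 1.55 to 1.70 CPM. All control-ASO mice were above all P133 mice, at log2 2.63 (SE 0.62, adjusted p = 0.00652), or 4.25 without P133 replicate 4. The change in P133 relative to untreated mice was log2 -2.08 (SE 0.80, adjusted p = 0.0588), and without P133 replicate 4 it was -3.63 (adjusted p = 0.0194). The ASO groups differed by log2 -0.32 (SE 0.43, adjusted p = 0.597, 95% interval -1.23 to 0.58).

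The Spred genes code for membrane-bound inhibitors of Raf activation. Spred1 (chromosome 2, plus strand, 117121374 to 117182279) ran from 5.56 CPM through a median of 7.75 to 14.3 CPM in Smyd3-ASO mice and from 9.13 CPM through a median of 11.6 to 14.3 CPM in control-ASO mice. Its P133 mice had 7.58, 8.31, 4.88 and 9.64 CPM and its untreated mice 5.05, 4.98, 6.24, 6.10 and 4.95 CPM. Of the Smyd3-ASO mice only replicates 3 and 4 exceeded the lowest control-ASO mouse. Spred1 was at log2 -0.44 in Smyd3-ASO over control ASO (SE 0.21, adjusted p = 0.128), and without replicate 3, at 14.3 CPM, it was -0.64 (adjusted p = 0.0151). Spred2 (chromosome 11, plus strand, 19924375 to 20024026) averaged 4.84 ± 1.26 CPM under Smyd3-ASO and 5.56 ± 0.901 CPM under control ASO (SD, n = 6 each). At P133 it averaged 2.45 ± 1.07 CPM (n = 4) and in untreated mice 2.89 ± 0.770 CPM (n = 5). Its change between the ASO groups was log2 -0.21 (SE 0.19, adjusted p = 0.425, 95% interval -0.61 to 0.19).

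The Etv genes code for transcription factors of the ETS family. Etv5 (chromosome 16, minus strand, 22381309 to 22439719) ran from 1.52 CPM through a median of 7.35 to 8.66 CPM in Smyd3-ASO mice and from 4.64 CPM through a median of 6.70 to 8.91 CPM in control-ASO mice. Its P133 mice had 3.58, 3.22, 4.44 and 1.58 CPM and its untreated mice 2.26, 2.13, 3.12, 1.31 and 2.14 CPM. Of the 6 Smyd3-ASO mice, replicate 6 alone lay in the untreated range, the others between 7.06 and 8.66 CPM. Its difference between the ASO groups was log2 -0.02 (SE 0.30, adjusted p = 0.969, 95% interval -0.65 to 0.61), and the sign of this value changes between fits. Etv4 (chromosome 11, minus strand, 101769742 to 101785371) summed to 20 counts over the Smyd3-ASO mice, 42 over the control-ASO mice, 2 over the P133 mice and 4 over the untreated mice. The ratio of Smyd3-ASO to control ASO was 0.312 (exact binomial 95% interval 0.173 to 0.543, counting error only), and the fit over mice gave an adjusted p of 0.204. Of the 20 Smyd3-ASO counts, 15 came from replicate 2.

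Control ASO over untreated asks how tumour-bearing livers under the control oligonucleotide differ from normal liver. Here 6 of the 8 tested members rose and 0 fell, where 23.7% of all genes tested rose and 22.2% fell (45.9% in either direction). Dusp5 was 23.6-fold higher, at 8.80 ± 4.84 CPM in control-ASO mice (SD, n = 6) and 0.374 ± 0.301 CPM in untreated mice (n = 5), or log2 4.56 (SE 0.55, adjusted p = 2.8e-05). That fold rests on 1 to 6 counts per untreated mouse. Dusp5 reached the minimum count in 0 of 5 untreated mice and passed the filter through the ASO groups, which also bears on its rise and lack of overlap here. Dusp6 rose by log2 2.25 (SE 0.21, adjusted p = 1.89e-06), Spry2 by 1.78 (SE 0.44, adjusted p = 0.00455), Etv5 by 1.63 (SE 0.23, adjusted p = 7e-05), Spred1 by 1.10 (SE 0.16, adjusted p = 6.7e-05) and Spred2 by 0.96 (SE 0.20, adjusted p = 0.00159). Of these all but Spry2 had control-ASO mice wholly above untreated mice, 5 members where 13.8% of all genes did so on the higher side. The Spry2 change rests on 4 to 12 counts per untreated mouse. Spry4 (log2 0.53, adjusted p = 0.253) and Spry1 (log2 0.31, adjusted p = 0.398) did not pass. The median of the 8 members was log2 1.37, next to 0.06 over all genes. Without the filter, 7 of all 10 members rose, Dusp4 being the addition.

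The scaling matters for this comparison and for the others against untreated mice, since the 10 most abundant genes hold 17.3 to 22.9% of counts in control-ASO mice and 24.9 to 32.2% in untreated mice. With library totals in place of the scaling, all genes shifted by a median of log2 0.90, and 10036 genes were called higher and 687 lower, where the scaled fit called 3620 higher and 3398 lower. Of the members, 8 of 8 then rose, with Spry1 at log2 1.15, Spry4 at 1.37, Etv5 at 2.50, Spred1 at 1.97 and Spred2 at 1.82. Bile duct markers summed to 114 to 236 CPM in control-ASO mice and 20.95 to 38.0 CPM in untreated mice, with 3 of 7 higher and 0 lower. The median change of the 7 was log2 0.32. Hepatocyte markers summed to 68277.3 to 111352 CPM in control-ASO mice and 99406.3 to 155098 CPM in untreated mice, with 5 of 10 lower and 0 higher. Their part was not tested.

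Smyd3-ASO over untreated shows which members differed from normal liver, with DEN, tumour and oligonucleotide differing together. Here 5 of the 8 rose and 0 fell, with 24.4% of all genes higher and 23.2% lower (47.6% in either direction). Dusp6 rose by log2 2.38 (SE 0.26, adjusted p = 1.19e-05), Dusp5 by 1.79 (SE 0.54, adjusted p = 0.0140), Etv5 by 1.60 (SE 0.36, adjusted p = 0.00255), Spred2 by 0.73 (SE 0.24, adjusted p = 0.0212) and Spred1 by 0.65 (SE 0.23, adjusted p = 0.0298). The Dusp5 change rests on 1 to 6 counts per untreated mouse. Dusp6 alone had groups that did not overlap, as had 13.9% of all genes on the higher side. The median of the 8 members was log2 0.69, next to 0.06 over all genes. Both comparisons against untreated mice use the same 5 untreated livers. The Spred calls were lost without the mice of low Dbp (Spred2 log2 0.53, adjusted p = 0.0855; Spred1 log2 0.67, adjusted p = 0.0590), so that 3 members rose, and 3 also rose without untreated replicate 1 or replicate 5. Spred1 lost its call as well with voom (log2 0.62) and without Smyd3-ASO replicate 3 (log2 0.44) or 4 (0.63) or untreated replicate 2 (0.62). With library totals all genes shifted by log2 0.96, with 9522 genes higher and 893 lower in place of 3734 and 3554, and Dusp5 stood at 2.70, Etv5 at 2.51, Spred2 at 1.62 and Spred1 at 1.52; Spry1 was then called too, at 1.33, for 6 of 8. Hepatocyte markers summed to 28659.6 to 46133 CPM in Smyd3-ASO mice and 99406.3 to 155098 CPM in untreated mice, with 8 of 10 lower and 0 higher, and bile duct markers to 49.0 to 80.7 CPM in Smyd3-ASO mice and 20.95 to 38.0 CPM in untreated mice, with 3 of 7 higher and 1 lower. Neither pair of sums overlapped, and their part was not tested. In the fit without a filter 6 of all 10 members rose, Dusp4 among them.

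P133 livers, taken before any oligonucleotide, were set against untreated livers next. Dusp6 rose by log2 0.99 (SE 0.30, adjusted p = 0.0303), at 52.4 ± 29.5 CPM in P133 mice (SD, n = 4) and 26.4 ± 3.71 CPM in untreated mice (n = 5). It was the 1 member called of 8, a share near the background of 15.1% of genes higher and 16.6% lower (31.6% in either direction). Replicate 1, at 95.6 CPM, was the highest P133 mouse, and every P133 mouse was above every untreated mouse. Non-overlap on the higher side held for 12.6% of all genes. Without P133 replicate 1 the change was log2 0.53 and still passed. The call was lost without untreated replicate 1, 2, 4 or 5, at log2 0.94 to 1.03. The count was 2 without P133 replicate 3, where Spred1 passed at log2 0.65 (adjusted p = 0.0289), and 2 without P133 replicate 4, where Spry4 passed. In the fit of all 10 members without a filter Dusp6 lost its call, while 1 rose (Dusp4) and 1 fell (Spry4). The Dusp4 call in that fit (adjusted p = 0.0482) rests on 5 counts over the P133 mice and 0 over the untreated mice. Dusp5 was log2 0.19 (SE 0.72, adjusted p = 0.864), with a 95% interval of -1.34 to 1.71 that its 1 to 3 counts per P133 mouse leave wide. Spred2 was log2 -0.23 (adjusted p = 0.630), or 0.37 with library totals. The median of the 8 members was log2 0.34, next to 0.00 over all genes. With library totals all genes shifted by log2 0.59, and 6471 were higher and 821 lower in place of 2306 and 2533, with Dusp6 at 1.59. Hepatocyte markers summed to 52224.4 to 55323.3 CPM in P133 mice and 99406.3 to 155098 CPM in untreated mice, with 6 of 10 lower and 0 higher. Clock genes differed as well, with Dbp at 1.53 to 8.85 CPM in all P133 mice and at 92.1 to 119 CPM in untreated mice other than replicate 5 (12.97 CPM). Nr1d1, a clock repressor, was at 1.05 to 1.90 CPM in P133 mice and 12.7 to 38.2 CPM in untreated mice. The part of both in the change of Dusp6 was not tested, and leaving out untreated replicate 5 does not match the groups for Dbp.

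Control ASO over P133 spans the later part of the tumour course together with age and the oligonucleotide, which cannot be told apart. Of the 8 members 6 rose and 0 fell, with 14.4% of all genes higher and 12.6% lower (27.0% in either direction). Dusp5 rose by log2 4.37 (SE 0.60, adjusted p = 0.000311), Spry4 by 2.63, Dusp6 by 1.26 (SE 0.36, adjusted p = 0.0254), Spred2 by 1.19 (SE 0.27, adjusted p = 0.00436), Etv5 by 1.11 (SE 0.28, adjusted p = 0.00848) and Spred1 by 0.61 (SE 0.20, adjusted p = 0.0343). Dusp5, Spry4, Spred2 and Etv5 had no overlap between groups, as had 11.3% of all genes on the higher side. Dusp5 and Spry4 had 1 to 3 and 0 to 4 counts per P133 mouse. Both reached the minimum count in 0 of 4 P133 mice and so passed the filter through other groups, which bears on their rise and lack of overlap here. The Dusp6 call was lost without control-ASO replicate 2 or P133 replicate 2, 3 or 4 (log2 1.08 to 1.20), and the Spred1 call without control-ASO replicate 2, 4 or 6 or P133 replicate 1, 2 or 3 (log2 0.46 to 0.65). The Dusp6 call was also lost without the filter (log2 1.30) and without control-ASO replicates 1 and 2, of low Dbp (0.97), and the Spred1 call with voom (0.60), in 1 fit of all groups (0.61), over mice with shared numbers (0.59) and with the replicate block (0.60). Without the filter 5 of all 10 members rose. Bile duct markers summed to 114 to 236 CPM in control-ASO mice and 29.2 to 53.5 CPM in P133 mice, with 2 of 7 higher and 0 lower. Hepatocyte markers summed to 68277.3 to 111352 CPM in control-ASO mice and 52224.4 to 55323.3 CPM in P133 mice, with 3 of 10 higher and 2 lower. Their median change was log2 -0.11, opposite in sign to the change of the sum, since a sum follows its most abundant markers. Of 10 cell cycle genes 7 were higher and 1 lower, and Nr1d1 stood at 7.99 to 35.4 CPM in control-ASO mice and 1.05 to 1.90 CPM in P133 mice. The part of these in the members' changes was not tested.

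Smyd3-ASO over P133 had 2 of 8 higher and 0 lower, Dusp6 at log2 1.41 (SE 0.38, adjusted p = 0.0218) and Spred2 at 0.98 (SE 0.30, adjusted p = 0.0330), where 13.1% of all genes were higher and 11.7% lower (24.8% in either direction). These groups too differ in age, tumour course and oligonucleotide together, which cannot be told apart. No member's groups failed to overlap, where 9.8% of all genes were wholly higher and 9.47% wholly lower. Without the filter 1 of all 10 members rose. Dusp5 was at log2 1.61 (SE 0.56, adjusted p = 0.0509). Without P133 replicate 2 or 3 this count was 0, without P133 replicate 4 or Smyd3-ASO replicate 5 it was 1, and without Smyd3-ASO replicate 6 it was 5. Hepatocyte markers summed to 28659.6 to 46133 CPM in Smyd3-ASO mice and 52224.4 to 55323.3 CPM in P133 mice, with 5 of 10 lower and 0 higher, and Nr1d1 stood at 4.22 to 14.3 CPM in Smyd3-ASO mice and 1.05 to 1.90 CPM in P133 mice; their part was not tested. With library totals all genes shifted by log2 0.28 and 0.34 in these 2 comparisons, with 3855 genes higher and 985 lower for control ASO (2200 and 1931 with scaling) and 3369 higher and 736 lower for Smyd3-ASO (2011 and 1783 with scaling).

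**Figure D2:**
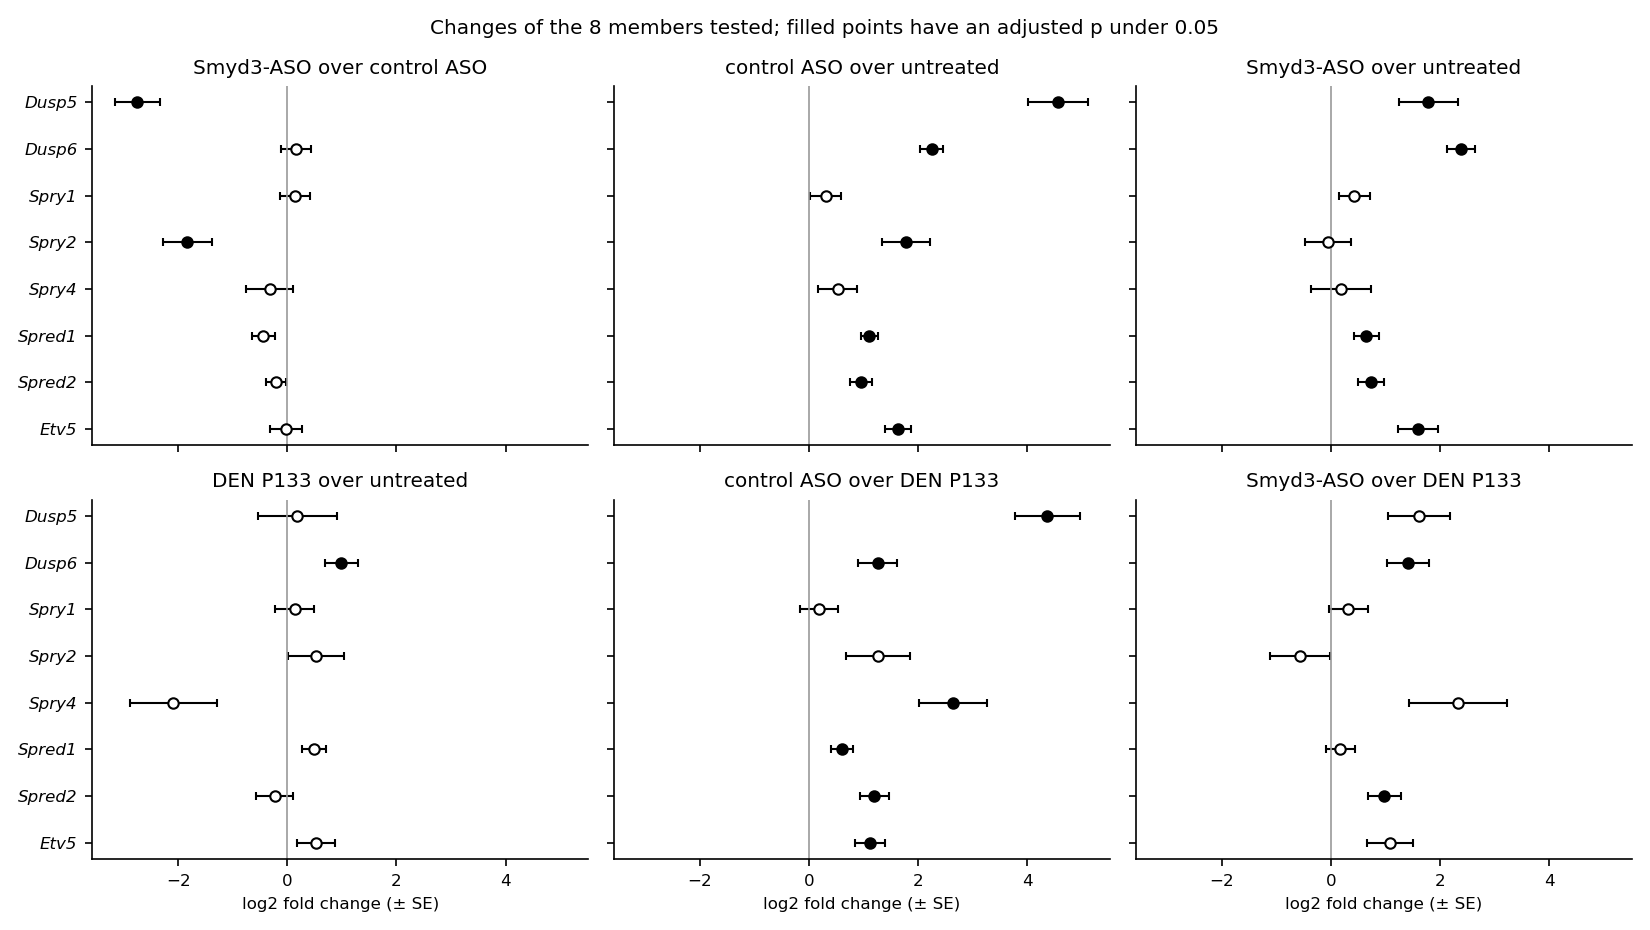
Log2 fold change of the 8 tested feedback genes (x axis, points with SE bars) in each of 6 comparisons (panels). Filled points passed an adjusted p of 0.05. Dusp5 and Spry2 lie left of 0 only for Smyd3-ASO over control ASO among called values, and Dusp6 is near 0 there and at 2.25 and 2.38 against untreated mice.

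To set Dusp5 and Spry2 against Dusp6 without any scaling between mice, their counts were divided within each mouse (0.5 added to each count). These ratios were chosen after the values had been seen, with Dusp5 and Spry2 taken for their fall and Dusp6 for its lack of a call, so they are given as a description with no test. The log2 ratio of Dusp5 to Dusp6 averaged -6.78 ± 0.330 in Smyd3-ASO mice (-7.38 to -6.52) and -3.95 ± 0.517 in control-ASO mice (-4.87 to -3.52; SD, n = 6 each). The groups did not overlap, and their means differed by -2.83. Control-ASO against untreated mice gave -3.95 ± 0.517 (n = 6) and -6.15 ± 1.01 (n = 5), a difference of 2.19. These groups overlapped, with untreated replicate 4 at -4.55 and control-ASO replicate 3 at -4.87. The untreated ratios rest on 1 to 6 Dusp5 counts per mouse, to which 0.5 was added. For Spry2 over Dusp6 the Smyd3-ASO mice averaged -7.13 ± 1.23 and the control-ASO mice -5.28 ± 1.06 (SD, n = 6 each), a difference of -1.85 with overlap between groups. Control ASO against untreated gave a difference of -0.68 for Spry2 over Dusp6, also with overlap between groups.

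**Figure D3:**
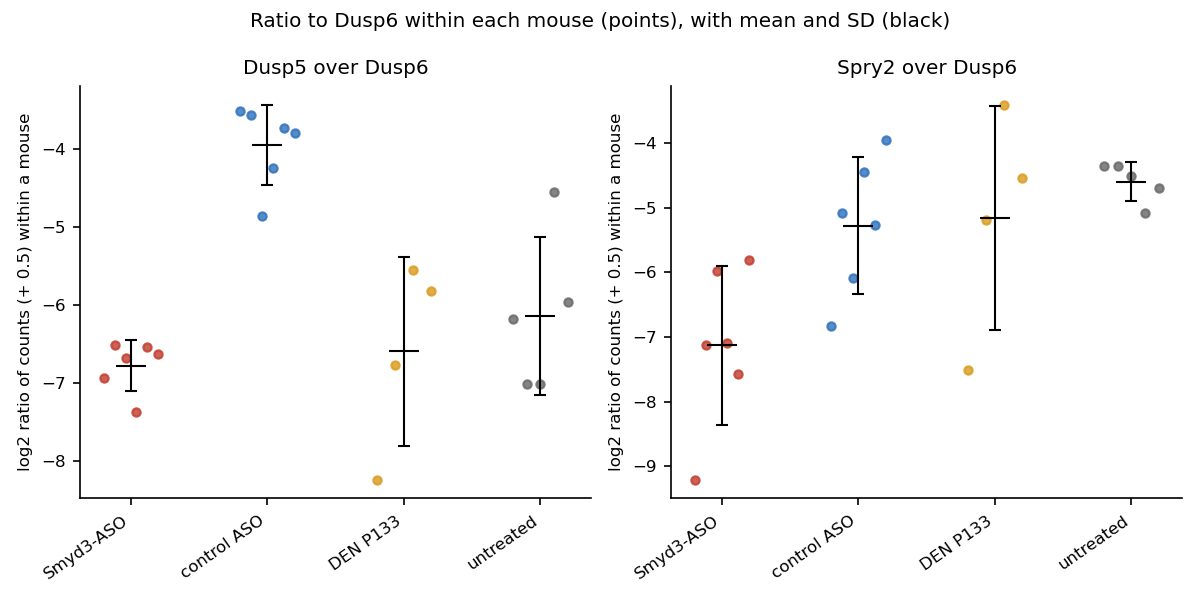
Log2 ratio of Dusp5 (left) and Spry2 (right) to Dusp6 counts within each mouse (y axis) by group (x axis). Points are mice, the black line is the mean and the bars are 1 SD. The 6 Smyd3-ASO mice lie at -6.52 or lower for Dusp5 and the 6 control-ASO mice at -4.87 or higher.

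Mice within a group did not rank alike for all members. Smyd3-ASO replicate 2 was the highest of its group for 5 of the 8 tested members and replicate 6 the lowest for 5. Replicate 6 also had the fewest counts of its group, 6358080, and was the one ASO mouse with a single library. In the control-ASO group replicate 1 was highest for 4 members and lowest for 2. Among untreated mice, replicate 3 was highest for 5.

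Upstream, the 22 ligands chosen for the pathway included 17 that were tested. Under Smyd3-ASO 5 of these fell and 1 rose, with a median of log2 -0.45, where 12.9% of all genes fell and 13.3% rose. Fgf21, a hormone of the fasted and stressed liver, was at 0.455 ± 0.549 CPM in Smyd3-ASO mice and 6.89 ± 5.98 CPM in control-ASO mice (log2 -3.77, SE 0.82, adjusted p = 0.0058). Igf2, a fetal growth factor, was at 0.458 ± 0.541 CPM in Smyd3-ASO mice and 4.06 ± 2.92 CPM in control-ASO mice (log2 -3.02, SE 0.63, adjusted p = 0.00406). Tgfa, a ligand of Egfr, fell without overlap, at 7.96 to 9.99 CPM in Smyd3-ASO mice and 11.3 to 18.6 CPM in control-ASO mice (log2 -0.71, SE 0.14, adjusted p = 0.00259). Against untreated mice, 7 ligands rose and 3 fell in control-ASO mice, where 23.7% of all genes rose and 22.2% fell, among them Tgfa (log2 1.36) and Pdgfa (log2 1.67, adjusted p = 2.54e-05) on the higher side and Igf1 (log2 -1.29, adjusted p = 2.78e-05) on the lower.

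Of 19 tested receptors, 4 fell and 1 rose under Smyd3-ASO, with a median of log2 -0.24, next to 12.9% of all genes lower and 13.3% higher. Fgfr2 was at 14.5 ± 3.83 CPM in Smyd3-ASO mice and 32.0 ± 7.50 CPM in control-ASO mice (log2 -1.15, SE 0.20, adjusted p = 0.00109), and Klb, the co-receptor that Fgf21 needs, at 2.27 ± 1.47 CPM in Smyd3-ASO mice and 6.36 ± 2.08 CPM in control-ASO mice (log2 -1.49, adjusted p = 0.00742). Kit, the stem cell factor receptor, rose by log2 1.20 (adjusted p = 0.0048). In control-ASO over untreated mice 6 receptors rose, with Fgfr1 at log2 1.75, Flt1 at 0.74 and Insr at 0.68, and 3 fell, which were Kit (log2 -1.27), Egfr (-0.93) and Klb (-0.81); over all genes 23.7% rose and 22.2% fell. Egfr and the untreated comparisons of Kit and Klb were chosen after their values were seen.

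Within the cascade from adaptors to ERK and its kinases, 24 of 24 genes were tested. Under Smyd3-ASO 4 rose and 2 fell, with a median of log2 0.05, shares near those of all genes (13.3% higher and 12.9% lower). Those that rose include Nras at log2 0.80 (adjusted p = 0.0029), the Ras activator Sos1 at 0.67 (adjusted p = 0.00337) and the scaffold gene Lamtor3 at 1.28 (adjusted p = 0.00572). In control-ASO over untreated mice 7 rose, Rps6ka3, which codes for a kinase activated by ERK, at log2 0.82 among them, and 1 fell, where 23.7% of all genes rose and 22.2% fell. The one that fell was Hras, at 17.2 ± 2.66 CPM in control-ASO mice (SD, n = 6) and 61.8 ± 11.7 CPM in untreated mice (n = 5), log2 -1.85 (SE 0.15, adjusted p = 4.7e-07). Hras stood at 15.6 ± 2.37 CPM in Smyd3-ASO mice (n = 6) and 20.8 ± 2.83 CPM in P133 mice (n = 4).

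Of 20 other inhibitors tested, 3 fell and 1 rose under Smyd3-ASO, with 12.9% of all genes lower and 13.3% higher. Among the GTPase activators of Ras, Rasa1 (log2 -0.68, adjusted p = 0.00555) and Rasa2 (log2 -0.54, adjusted p = 0.0365) fell, and Rasa3 rose by 0.92 (adjusted p = 0.0026). Against untreated mice 7 rose and 0 fell in control-ASO mice (23.7% and 22.2% of all genes), among them the phosphatase genes Dusp16 (log2 1.28, adjusted p = 5e-06) and Dusp2 (log2 2.55, adjusted p = 0.00112) and Rasa2 (log2 1.41). Of 20 tested genes of the ERK output, most of them immediate early genes, 2 fell and 1 rose under Smyd3-ASO, both shares below those of all genes (12.9% lower and 13.3% higher). Ier2 was at 16.0 ± 5.89 CPM in Smyd3-ASO mice and 34.2 ± 11.1 CPM in control-ASO mice (log2 -1.10, adjusted p = 0.0133), Maff fell by log2 1.09 and Plaur, the urokinase receptor, rose by log2 1.54 (adjusted p = 0.0213). Control ASO over untreated had 12 of these 20 higher and 1 lower, with a median of log2 0.97, where 23.7% of all genes were higher and 22.2% lower. Junb rose by log2 2.58 (adjusted p = 1.91e-06), Ier3 by 2.51 (adjusted p = 6.7e-05) and Ier2 by 1.74 (adjusted p = 2.63e-05). Egr1, Fos and Srf were added after their values were seen. Egr1, an immediate early transcription factor, was at 210 ± 118 CPM in Smyd3-ASO mice and 173 ± 73.3 CPM in control-ASO mice (SD, n = 6 each), against 5.92 ± 2.51 CPM in P133 mice (n = 4) and 4.15 ± 4.28 CPM in untreated mice (n = 5). All mice of both ASO groups, from 37.7 CPM up, lay above all P133 and untreated mice, of which the highest had 11.6 CPM. Such a split, counted in either direction, held for 2.74% of all genes tested and for 0 members. Fos ranged from 2.65 to 10.7 CPM in Smyd3-ASO mice and from 4.28 to 55.4 CPM in control-ASO mice, and from 0.107 to 0.290 CPM in untreated mice. Srf, the factor that binds CArG boxes, was the 1 gene of the list to fall in control-ASO over untreated mice, where it fell by 0.995 on the log2 scale (adjusted p = 0.00182).

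**Figure D4:**
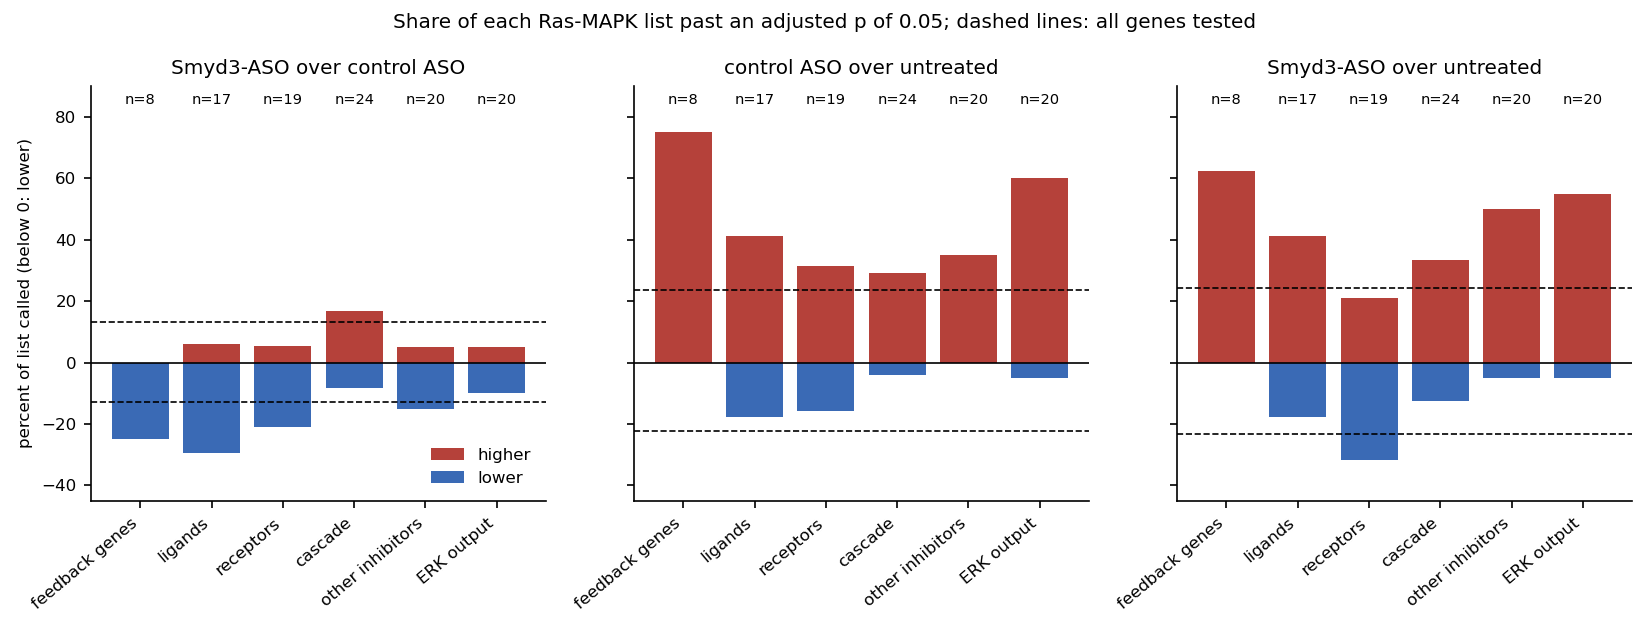
Percent of the tested genes of each Ras-MAPK list (x axis) called higher (above 0) or lower (below 0) in 3 comparisons (panels), with the number tested above each bar. Dashed lines give the same percent over all genes tested; in control ASO over untreated the feedback genes (6 of 8) and ERK output genes (12 of 20) stand highest above it.

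Of 9684 genes whose log2 CPM averaged 2 or more, those whose pattern over the 21 mice was most like that of Dusp6 were Calu, Sun1, Arhgef5, Dusp16 and Msl1. The measure was the root mean square difference of standardized log2 CPM, which ran from 0.407 for Calu to 0.461 for Msl1. Calu, for example, averaged 139 ± 53.7 CPM in Smyd3-ASO mice, 135 ± 14.1 CPM in control-ASO mice (SD, n = 6 each), 55.7 ± 7.28 CPM in P133 mice (n = 4) and 30.8 ± 5.43 CPM in untreated mice (n = 5). Among the members themselves the distance from Dusp6 was smallest for Spred2 (0.651) and Etv5 (0.656), larger for Dusp5 (0.769) and Spred1 (0.890) and largest for Spry1 (1.02), Spry4 (1.14) and Spry2 (1.28).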

How the data were processed

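RNA of liver pieces went into 3'-end libraries (QuantSeq FWD) read on a NextSeq 500, per the labels' protocols. The submitters' processing notes name HISAT2 2.1.0, the mm10 genome and DESeq without a version; the counting program, its annotation and its strand setting are not given in the sources used here. The authors deposited raw counts for 55413 genes in 21 columns made from 35 libraries, and a second table whose values are a normalized score. The deposited score was checked against the counts: 100% of values lay within 0.51 of the raw count over a size factor (median of ratios). The counts were used here, the score only as an alternative.

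Symbols and positions came from GENCODE vM21. Genes were kept by edgeR filterByExpr over the 4 groups (10 counts in a library of median size, in at least 4 mice). The 2 groups of a comparison alone entered its fit, by edgeR 4.0.16 under R 4.3.3 (TMM, robust quasi-likelihood, two-sided, Benjamini-Hochberg over all genes tested); SE and intervals come from these fits. DESeq2 1.42.0, limma 3.58.1 voom, other scalings, no filter, 1 fit of all groups, a replicate block and leaving out each mouse were alternatives. The fits were also run on simulated counts in which few genes changed, none of them at the lowest levels. That run does not cover the sparsest members, and its outcome is not given here. The labels call the samples biological replicates. Count intervals cover counting error only.

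The members, gene lists and tests were chosen with earlier results of these data known. Named genes are the 10 members, Smyd3, the 3 genes of smallest adjusted p per pathway list in Smyd3-ASO over control ASO and in control ASO over untreated, and the 5 genes most like Dusp6; 1 result under this rule is not reported here. Clock genes, the within-mouse ratios, the fits without mice of low Dbp or over mice with shared numbers, and the genes so marked in the text were added after the values were seen. Replicate numbers do not pair mice across groups: in no comparison did all same-numbered pairs deviate together.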

Additional observations from a re-analysis of the deposited data

Results flagged for a closer look

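Of 39 pairs of a feedback gene and a group examined, 3 had 1 mouse farther from the rest of its group than the 95% limit of Dixon's test, which chance passes in about 1 of 20 groups. All were Smyd3-ASO mice. Spred2 was high in replicate 5, at 7.31 CPM. Etv4 was high in replicate 2, at 0.583 CPM, which is 15 counts. Etv5 was low in replicate 6, at 1.52 CPM.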

How the results depend on the processing

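For Smyd3-ASO over control ASO, Dusp5 (log2 -3.03 to -2.21) and Spry2 (-2.004 to -1.62) passed in all 21 alternatives; without Smyd3-ASO replicate 3, Spred1 was called too. Over all member values and alternatives, 876 kept direction and side of the threshold, 46 lost the call, 28 gained it and 26 changed sign. Some fits are identical under different names, and these numbers count them each time. Members called in Smyd3-ASO over untreated were 5, and 3 without mice of low Dbp (3 to 5 over single mice left out); Spry1 was called with library totals (log2 1.33) and Spred1 lost with voom (0.62). In control ASO over P133, Dusp6 was lost without the filter (1.30) and without mice of low Dbp (0.97), and Spred1 with voom, in 1 fit of all groups, over mice with shared numbers and with the block. In P133 over untreated the 1 call became 2 in 1 fit of all groups and with the score, 3 with library totals (7292 genes in all), and 0 to 2 over single mice left out. It became 0 without untreated replicate 5, and this 1 fit is also the one without mice of low Dbp and the one over mice with shared numbers. In that comparison the Dusp6 call was also lost without the filter. In Smyd3-ASO over P133 the 2 became 5 with DESeq2 and library totals, 4 in 1 fit of all groups and with the score, 1 with voom, without mice of low Dbp and without the filter, and 0 to 5 over single mice left out (2519 to 4282 genes in all, the fewest without P133 replicate 2); voom called 1292 genes higher and 1754 lower there, in place of 2011 and 1783. Library totals called 10723 genes in control ASO over untreated. The fit with the replicate block called 2, 6, 5, 1, 4 and 2 members in the order of the 6 comparisons in the text; in control ASO over P133 it called 2543 genes (4131 without the block) and lost Etv5 (log2 0.95) and Spred1 (0.60), and in Smyd3-ASO over P133 it lost Spred2 (0.89) and gained Etv5 (1.34). Same-numbered mice correlated at -0.09 to 0.03 between the ASO groups, so the numbers give no pairing.

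Values that changed sign were not called under either setting. Etv5 in Smyd3-ASO over control ASO was log2 0.0018 with library totals, 0.014 without the filter and -0.11 to 0.17 over single mice left out; Dusp6 was -0.013 to 0.30 over these. Spry2 in Smyd3-ASO over untreated was 0.84 with library totals, 0.044 without mice of low Dbp, 0.020 without the filter and -0.22 to 0.13 over single mice left out; Spry4 was -0.0060 with voom, -0.20 without mice of low Dbp and -0.31 to 0.43 over single mice. In P133 over untreated, Spred2 was 0.37 with library totals, and over single mice left out Spry1 ran from -0.077 to 0.31, Dusp5 from -0.067 to 0.70 and Spry2 from -0.10 to 0.82. In Smyd3-ASO over P133, Spry2 ran from -0.86 to 0.060 and Spred1 from -0.027 to 0.31. The cause was not tested. Low counts limit Dusp4, Etv4, Dusp5 and Spry4, most of all at P133. They also limit Spry2, most of all in P133 and untreated mice.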
